A study of Mus musculus with 12 samples.

Results

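The clustered protocadherin genes were taken as all genes of the RefSeq table for GRCm38.p6 (mm10) named Pcdha, Pcdhb or Pcdhg with a number, or with a, b or c and a number, in the stretch of chromosome 18 that holds the 3 arrays, with 5′ ends from 36,930,285 (Pcdha1) to 37,819,546 (Pcdhgc5). This gave 58 of 49997 annotated genes. They were 12 alpha genes (Pcdha1 to Pcdha12), 22 beta genes (Pcdhb1 to Pcdhb22), 12 gamma A genes, 7 gamma B genes and 5 C-type genes (Pcdhac1, Pcdhac2, Pcdhgc3, Pcdhgc4 and Pcdhgc5). Pcdhgb8 is annotated as a transcribed pseudogene and the other members as protein-coding. Each member was measured in the 1 kb bin of its 5′ end and 1 bin on each side, a window of 3 kb. The smallest distance between neighbouring 5′ ends was 3.78 kb and no windows overlapped.

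Clustered protocadherins are cell-surface adhesion proteins by which neurons tell their own branches from those of other cells. Each alpha and gamma gene has a promoter and a long variable exon of its own that is spliced to constant exons shared by the whole cluster, whereas each beta gene is a single exon. A neuron uses a few of these promoters, chosen largely at random, and the C-type genes are used more uniformly. Most of the promoters carry a site for the insulator protein CTCF, and DNA methylation laid down in the early embryo helps to silence them. Pcdhac2, Pcdhb1, Pcdhgc4 and Pcdhgc5 are known to lack that shared promoter element.

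The study used mouse embryonic stem cells to map GZF1, a zinc-finger transcription factor with a BTB domain, by chromatin immunoprecipitation after formaldehyde fixation and micrococcal nuclease digestion. It has 12 libraries, of which 8 enter the values below, with 1 library in each group. In Cas9-GFP cells these were wild type with anti-GZF1, a control with anti-GZF1, the Gzf1 knockout with anti-GZF1, clone 35 overexpressing Gzf1-Flag with anti-FLAG, wild type with anti-H3K27ac (histone acetylation found at active regulatory DNA), and input without antibody. RGM cells, which are 129xCAST, gave a wild type library with anti-GZF1 and clone 56 overexpressing Gzf1-Flag with anti-FLAG. Each tagged line is thus 1 clone in which GZF1 is present above its normal amount. Anti-FLAG libraries of cells that lack the tag are not analysed here, so antibody background at the members cannot be told apart from binding. The values hold no expression data, so loss of GZF1 in the knockout was not checked. The study also holds another RGM Gzf1-Flag library with anti-FLAG, which is not analysed here. With 1 library per group among these 8 there are no replicates, and no test between groups was run. The intervals below are 95% exact Poisson intervals of counts, or exact binomial (Clopper-Pearson) intervals of ratios. They cover counting error only.

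Libraries held 10.09 M reads (input) to 94.18 M reads (control). Read density is the count of a window divided by the mean of that library over autosomal bins, so that 1 is the autosomal mean. A density of 1 in a 3 kb window corresponds to 11.8 reads in the input, 25.8 in RGM wild type, 47.6 in H3K27ac, 70.75 in Cas9 wild type and 79.4 to 107.3 in the other 4 libraries. Chromosome 18 itself was not at the same level in all libraries. Its mean density was 1.05 in the knockout against 0.797 to 0.849 in the other Cas9 libraries and 0.908 and 0.922 in the RGM libraries, so ratios are also given relative to the flanks, the 500 kb on each side of the interval. The control and the knockout also had flatter profiles, with 0.427% and 0.466% of 15680 protein-coding gene windows at 2 or more times their local background, against 19.7% in Cas9 wild type. For the labelled cell type, median H3K27ac density was 2.64 at 9 of 10 embryonic stem cell markers and 2.05 at all gene windows. It was 1.17 at 3 of 7 fibroblast markers and 1.82 at 4 of 5 neuron markers. The input medians had the same order, at 1.87 and 1.78, then 0.934 and 1.06, so this cannot decide the cell type. Single markers also varied, with H3K27ac at 0.903 at the stem cell marker Esrrb and 3.08 at the neuron marker Tubb3. The remaining markers were not among the compared gene windows.

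Pcdha2 carried the one strong anti-FLAG peak of the family, in both lines. Pcdha2 (chromosome 18, 36,939,205 to 37,187,661) encodes the alpha isoform whose variable exon is the second of the array, and its window from 36,938,001 to 36,941,000 lies within the annotated span of Pcdha1. In Cas9 its window held 601.5 anti-FLAG reads and reached density 7.37 (6.79 to 7.98). In RGM 447.5 reads gave 5.63 (5.12 to 6.18). The next highest members were Pcdhgc3 at 2.09 in Cas9 and 2.47 in RGM, far below the lower bounds at Pcdha2. With anti-GZF1 the Pcdha2 window was at 2.05 (1.73 to 2.42) in Cas9 wild type, from 145.2 reads. It was at 2.63 (2.04 to 3.34) in RGM wild type, from 68 reads. The control had 1.13 (0.934 to 1.34), the knockout 1.46 (1.23 to 1.72), H3K27ac 1.24 (0.943 to 1.60) and the input 1.27 (0.713 to 2.10) from 15 reads. Both anti-FLAG libraries and both wild types were thus the higher ones at Pcdha2, and H3K27ac was at the level of the input.

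Few genes elsewhere had so much anti-FLAG signal at their 5′ ends. Local background is here the median over bins up to 10 kb away on either side of a window. Against it the Pcdha2 window stood at 5.09 times in Cas9 and 4.64 times in RGM. Of 15680 protein-coding gene windows on 18 autosomes, 17 (0.108%) were as high in Cas9 and 33 (0.210%) in RGM, and 12 were as high in both. For wild-type anti-GZF1 the Cas9 value was 1.79 times and the RGM value 2.39 times, levels that 31.8% and 31.7% of gene windows reached. A gene window at these anti-GZF1 levels was therefore common, and one at these anti-FLAG levels was not. Among 2,462,755 autosomal bins 136 had an anti-FLAG density at least as high in both lines as the peak bin of Pcdha2, of which 40 had an input density of at most 3.

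At 1 kb resolution the anti-FLAG peak lay just upstream of the Pcdha2 5′ end. The highest bin, 36,938,001 to 36,939,000, held 313.9 reads in Cas9 and 209.4 in RGM, densities of 11.5 (10.3 to 12.9) and 7.91 (6.88 to 9.06). The bin that holds the 5′ end, 36,939,001 to 36,940,000, had 8.09 and 6.85. One bin further downstream the values were 2.48 and 2.14. The lines differed on the upstream side, where the bin from 36,937,001 to 36,938,000 had 5.02 (4.21 to 5.93) in Cas9 and 1.68 (1.22 to 2.25) in RGM. Anti-GZF1 in Cas9 wild type had its higher value in the bin of the 5′ end, 2.96 (2.31 to 3.74) against 1.67 (1.19 to 2.28) in the bin before it. RGM wild type had 3.01 (1.97 to 4.42) and 3.26 (2.17 to 4.71) in these bins. The control, at 1.63 and 0.510, and the knockout, at 2.04 and 1.26, were also higher in the bin of the 5′ end. Whether the Cas9 wild-type value there comes from GZF1 was not tested.

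**Figure D1:**
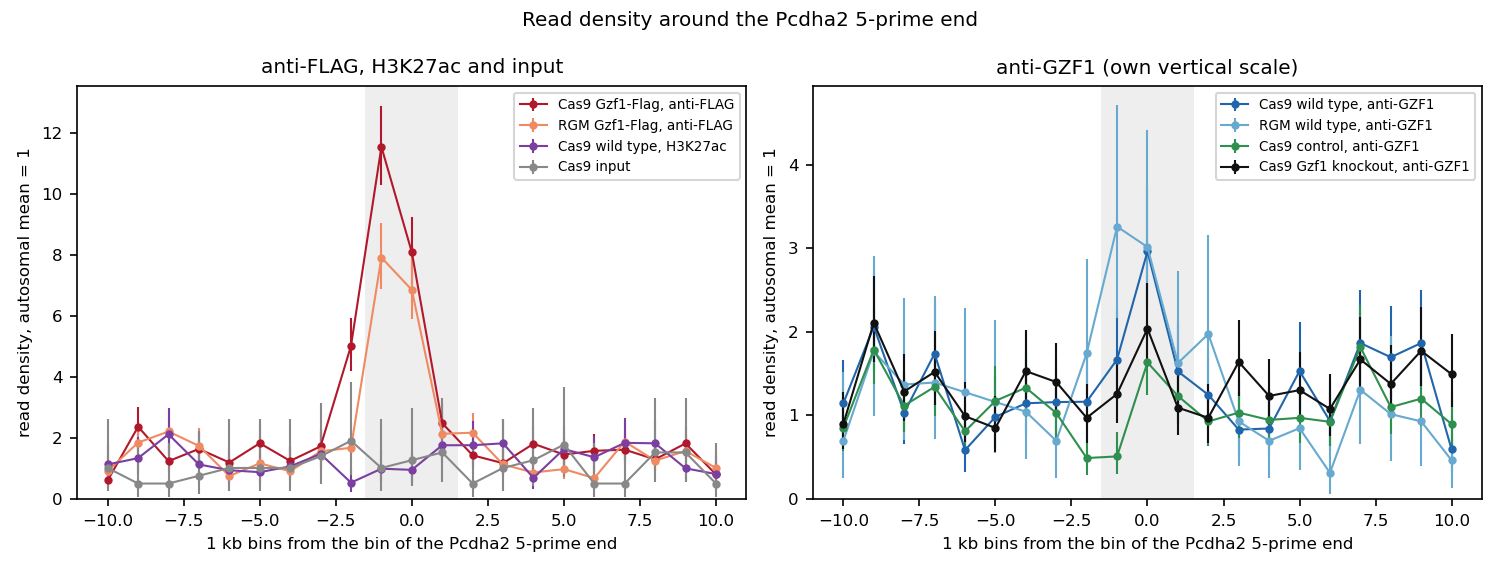
Read density in 1 kb bins from 10 bins upstream to 10 bins downstream of the bin that holds the Pcdha2 5′ end, with 95% exact Poisson intervals and the 3 kb window shaded; the left panel shows anti-FLAG, H3K27ac and input, the right panel the anti-GZF1 libraries on their own scale. The anti-FLAG libraries reach 11.5 and 7.91 in the bin before the 5′ end, where H3K27ac is at 0.995 and the input at 1.02, and the control has its low values of 0.491 and 0.510 at 2 bins and 1 bin upstream.

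The knockout did not have less anti-GZF1 signal than the control at the Pcdha2 peak. Over the window the ratio of knockout to control density was 1.30 (1.01 to 1.66), and 1.02 (0.788 to 1.30) relative to the flanks. In the highest anti-FLAG bin the control held 18.25 reads and the knockout 41.4, a ratio of 2.46 (1.39 to 4.58). The next bin upstream had 17.55 and 32 reads, which is 1.98 times (1.05 to 3.65). For the bin of the 5′ end, 58.45 and 67.1 reads gave 1.247 (0.870 to 1.81). The control was at 0.495 times its local background in the highest anti-FLAG bin, and the knockout at 0.955 times. In the bin of the 5′ end they were at 1.58 and 1.55 times, so the control was low upstream of the gene start but not at it.

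Neighbours of Pcdha2 in the alpha array had no such peak. Pcdha1 (36,930,285) had anti-FLAG densities of 1.41 (1.16 to 1.69) and 1.66 (1.39 to 1.97) in Cas9 and RGM, and Pcdha3 (36,946,088) had 1.5 (1.246 to 1.79) and 1.28 (1.04 to 1.55). Over the 11 alpha genes without Pcdha2 the densities ran from 0.907 at Pcdha11 to 1.53 at Pcdha4 in Cas9 and from 0.787 at Pcdha7 to 1.66 at Pcdha1 in RGM. In wild-type anti-GZF1 Pcdha2 was also the highest alpha gene, followed by Pcdha4 at 1.80 in Cas9 and Pcdha5 at 2.51 in RGM, whose intervals (1.5 to 2.14 and 1.93 to 3.20) overlapped those of Pcdha2. Pcdha4, Pcdha6 and Pcdha7 share their 5′ ends with annotated entries of other names (Gm37013, Gm38666 and Gm38667), so their windows cannot be assigned to one gene.

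By class, beta genes had the lowest median in all 7 ChIP libraries. The highest was that of gamma A or C-type genes in 5 of them and that of gamma B genes in the control and the knockout. In the input the alpha genes had the lowest median, 0.934, and the gamma A genes the highest, 1.36. With anti-FLAG in Cas9 the median was 1.29 for alpha, 1.04 for beta, 1.66 for gamma A, 1.42 for gamma B and 1.53 for C-type genes. With anti-GZF1 in Cas9 wild type it was 1.46, 1.15, 1.93, 1.85 and 1.89 in the same order, and for H3K27ac 1.40, 1.03, 1.76, 1.60 and 1.87. The H3K27ac library therefore ranked the classes much as the GZF1 libraries did, and its 3 highest members were Pcdhga10 (2.10), Pcdhga12 (2.06) and Pcdhgc4 (2.04).

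**Figure D2:**
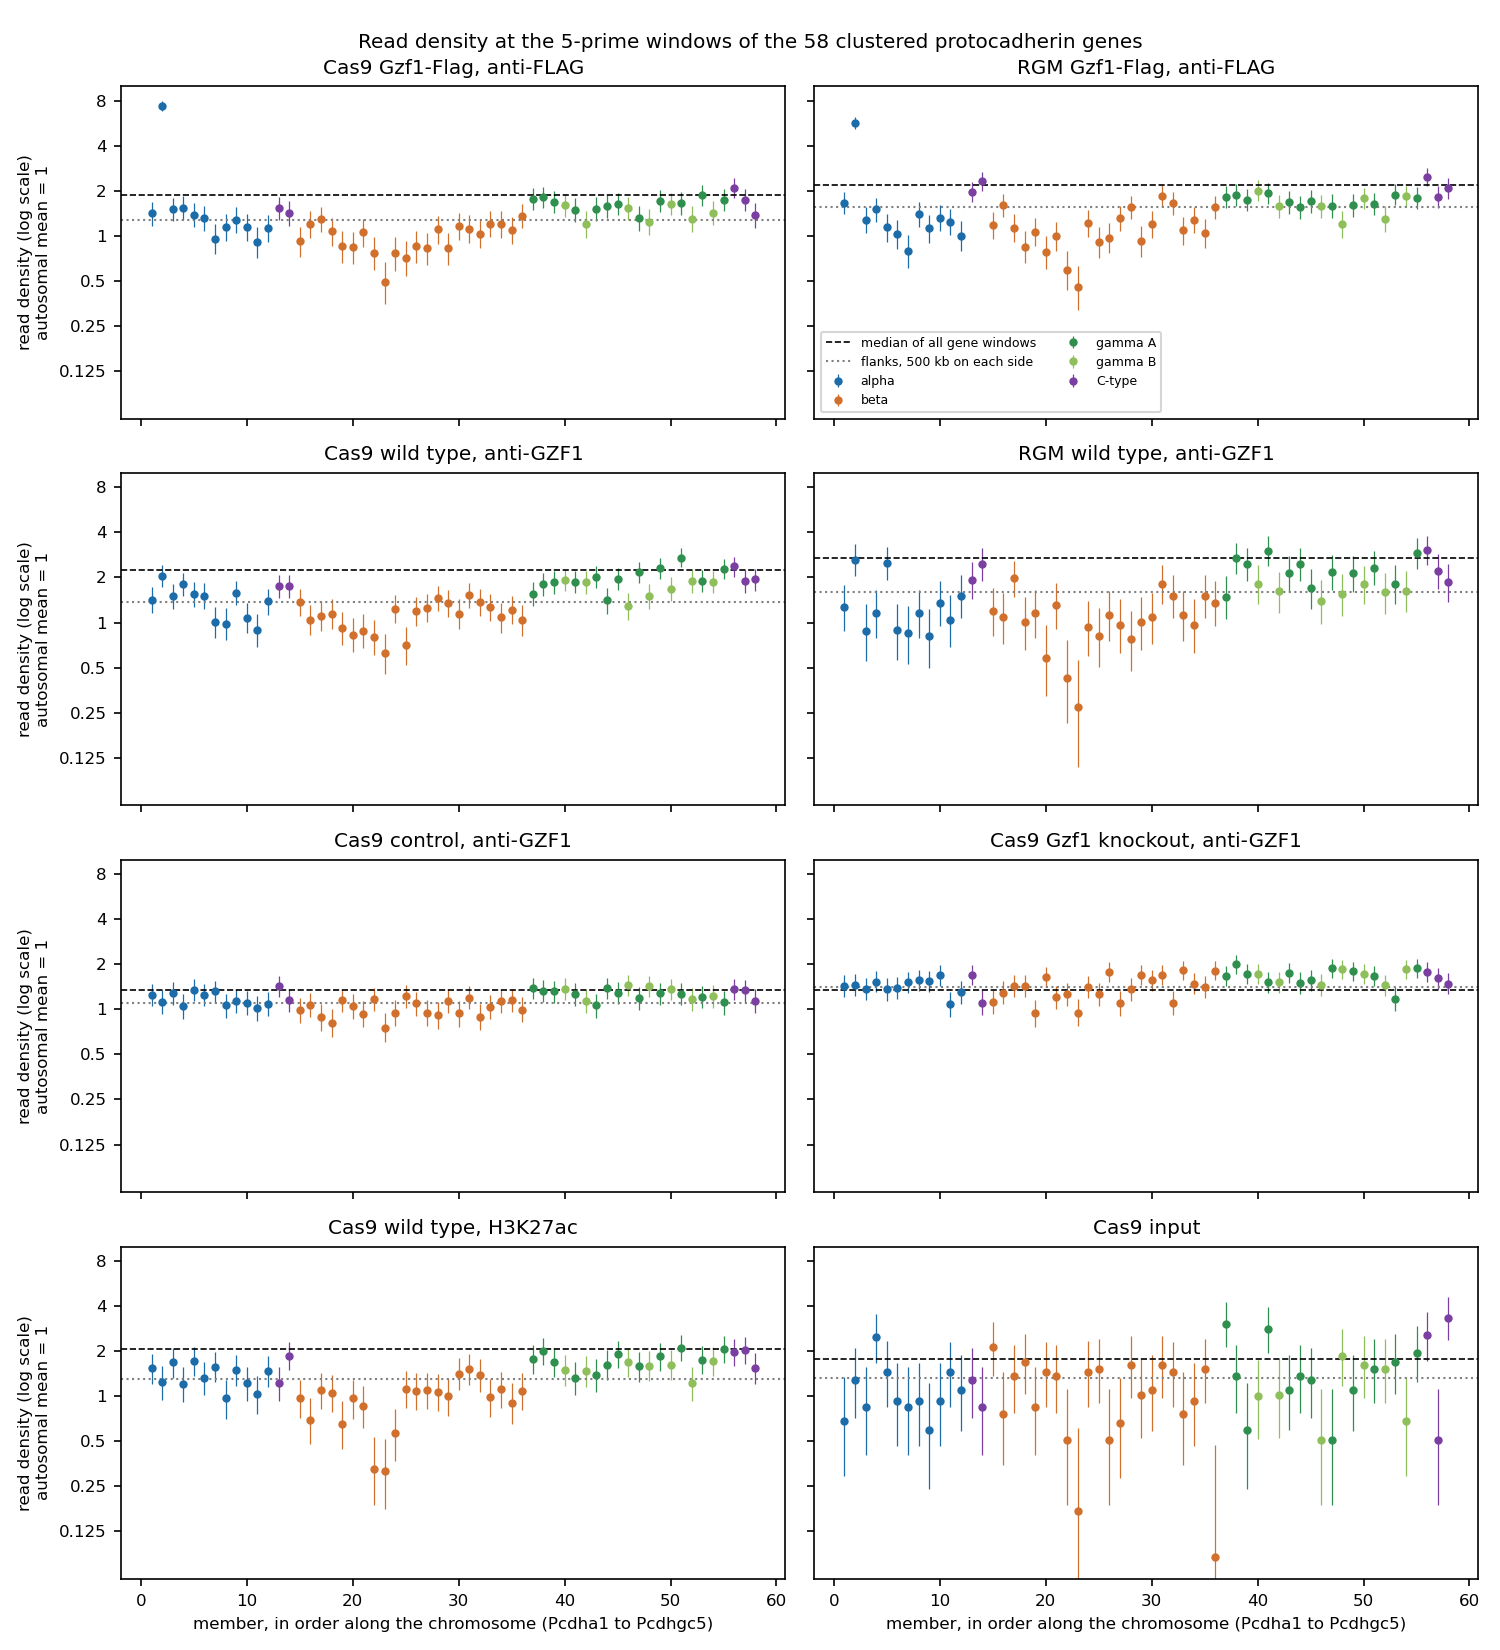
Read density (log scale, autosomal mean = 1) of the 3 kb window of each of the 58 members, in chromosomal order and coloured by class, in each of the 8 libraries, with 95% exact Poisson intervals; the dashed line is the median of 15680 gene windows and the dotted line the mean of the flanks. Pcdha2 stands alone in both anti-FLAG panels at 7.37 and 5.63, beta genes dip to Pcdhb9, and the control and knockout panels are flatter. The intervals of Pcdhb9 and Pcdhb22 in the input reach below the axis.

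With gamma A and gamma B genes pooled, a step up from the beta genes was present in every library. It was smaller in the control, the knockout and the input. Over 19 gamma A and gamma B windows against 22 beta windows the ratio of mean densities was 1.58 (1.49 to 1.68) for anti-FLAG in Cas9 and 1.47 (1.39 to 1.56) in RGM. It was 1.69 (1.59 to 1.80) and 1.87 (1.69 to 2.07) for wild-type anti-GZF1 in Cas9 and RGM, and 1.74 (1.60 to 1.88) for H3K27ac. In the control the mean densities were 1.28 and 1.02, in the knockout their ratio was 1.19 (1.13 to 1.252), and in the input it was 1.253 (1.07 to 1.48). In Cas9 anti-FLAG 15 of the 19 gamma windows lay above all 22 beta windows, in Cas9 wild-type anti-GZF1 16, in H3K27ac 14, in the control 13, in the knockout 5 and in the input 2. In RGM the overlap was larger, with 4 gamma windows above all beta windows for anti-FLAG and 9 for wild-type anti-GZF1, so this count did not set the GZF1 libraries apart from the control and the knockout. In the input the mean density was 1.53 for gamma A, 1.17 (0.952 to 1.43) for gamma B and 1.115 (0.991 to 1.252) for beta genes. The input median of gamma B genes, 1.02, was below that of beta genes, 1.23. The input itself thus moves with the class, mainly at gamma A genes, and its part in the result was not tested.

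In 6 of the 8 libraries Pcdhb9 was the lowest beta gene, while in the knockout it was Pcdhb5 (0.941) and in the input Pcdhb22 (0.0849). Pcdhb9 (37,400,855 to 37,403,909), one of the single-exon genes, had densities of 0.490 and 0.453 with anti-FLAG in Cas9 and RGM, 0.622 and 0.271 with wild-type anti-GZF1 in Cas9 and RGM, 0.315 for H3K27ac and 0.170 in the input from 2 reads. The control and the knockout were higher, at 0.756 (0.601 to 0.940) and 0.952 (0.769 to 1.16). Its surroundings were low too, since against local background Pcdhb9 stood at 1.51 and 1.5 times with anti-FLAG in Cas9 and RGM. Pcdhb8 was the next lowest member in H3K27ac and in both RGM libraries. Beta genes are close copies of each other and the mapping filters are not stated, so how reads were shared between copies is uncertain. At the other end of the range were Pcdhb22 with 1.36 (1.12 to 1.64) for anti-FLAG in Cas9 and Pcdhb17 with 1.85 (1.56 to 2.18) in RGM and 1.52 (interval up to 1.84) for anti-GZF1 in Cas9 wild type. Pcdhb1, which lies apart from the other beta genes, had 0.918 and 1.17 with anti-FLAG and 1.36 and 1.19 with wild-type anti-GZF1 in Cas9 and RGM.

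Gamma A genes were closer together with anti-FLAG than with wild-type anti-GZF1 in both lines, and gamma B genes in Cas9 only. Gamma A genes ran from 1.30 at Pcdhga8 to 1.86 at Pcdhga11 with anti-FLAG in Cas9, and from 1.55 at Pcdhga6 to 1.92 at Pcdhga4 in RGM. With anti-GZF1 in Cas9 wild type they ran from 1.41 at Pcdhga6 to 2.71 (2.34 to 3.13) at Pcdhga10, the highest of all 58 members in that library. In RGM wild type they ran from 1.49 (1.05 to 2.04) at Pcdhga1 to 3.02 (2.39 to 3.77) at Pcdhga4. That library has 25.8 reads per window at a density of 1, against 79.4 in RGM anti-FLAG. Its range thus holds more counting error, whose part was not tested. The intervals of the lowest and the highest gamma A gene did not meet in either wild type, and the genes at the ends differed between the lines. These genes were picked by value. In the knockout such intervals did not meet either, with 0.974 to 1.41 at Pcdhga11 and 1.73 to 2.30 at Pcdhga2. Gamma B genes ran from 1.20 at Pcdhgb2 to 1.63 at Pcdhgb6 with anti-FLAG in Cas9 and from 1.29 at Pcdhgb4 to 1.92 at Pcdhgb1 with anti-GZF1 in Cas9 wild type. In Cas9 anti-FLAG such intervals did meet, with 1.07 to 1.58 at Pcdhga8 and 1.57 to 2.18 at Pcdhga11. By the lower of both lines, the 5 highest members for anti-FLAG were Pcdha2 (5.63), Pcdhgc3 (2.09), Pcdhga11 (1.86), Pcdhga2 (1.80) and Pcdhga1 (1.77). For wild-type anti-GZF1 they were Pcdhgc3 (2.37), Pcdhga10 (2.32), Pcdhga12 (2.29), Pcdhga8 (2.17) and Pcdhga9 (2.13).

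C-type genes were led by Pcdhgc3, a broadly used gamma isoform with a role in dendrite branching. Pcdhgc3 (37,806,410 to 37,841,873) had densities of 2.09 (1.79 to 2.43) and 2.47 (2.13 to 2.84) with anti-FLAG in Cas9 and RGM. It had 2.37 (2.02 to 2.76) and 3.06 (2.42 to 3.81) with wild-type anti-GZF1. The control was at 1.36, the knockout at 1.79, H3K27ac at 1.98 and the input at 2.56 (1.73 to 3.65). Its input was thus as high as its ChIP values. Pcdhgc4, needed for the survival of cortical interneurons, had 1.73 and 1.82 with anti-FLAG and 1.89 and 2.22 with wild-type anti-GZF1, against 0.509 (0.187 to 1.11) in the input from 6 reads. Pcdhgc5 had 1.37 and 2.07 with anti-FLAG and 1.94 and 1.86 with wild-type anti-GZF1, against an input of 3.35 from 39.4 reads, the highest input of the family.

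Among the members, the C-type alpha genes stood out against their own surroundings more than by their level. Pcdhac2, which organises serotonergic axons, had densities of 1.41 (1.17 to 1.70) and 2.31 (1.99 to 2.67) with anti-FLAG in Cas9 and RGM. With wild-type anti-GZF1 it had 1.75 and 2.48. The control was at 1.16, the knockout at 1.11, H3K27ac at 1.87 and the input at 0.849. Against local background these were 1.57 and 2.37 times for anti-FLAG, 2.18 and 2.67 times for wild-type anti-GZF1 and 1.97 times for H3K27ac. Pcdhac1 had 1.97 and 2.11 times for anti-FLAG and 1.96 and 2.78 times for wild-type anti-GZF1, with the input at as much as 2 times. Both genes lie downstream of the alpha array and upstream of the beta array. Gaps of 69.9, 53.5 and 121.3 kb set them apart from other members, so their local background holds no other member window.

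Few members stood above their local background. Most neighbouring members lie less than 10 kb apart, so the local background of a member often includes windows of others. Its part in these counts was not tested. At 2 or more times local background there was 1 member with anti-FLAG in Cas9 (Pcdha2), where 5.61% of all gene windows passed, and 3 in RGM (Pcdha2, Pcdhac1 and Pcdhac2), where 19.0% passed. In both lines together it was Pcdha2 alone, 1.72% of the members against 4.52% of all gene windows. For wild-type anti-GZF1 there was 1 member in Cas9 (Pcdhac2) against 19.7% of gene windows, 9 in RGM against 45.4%, and 1 in both lines (Pcdhac2) against 18.5%. No member passed in the control, the knockout or H3K27ac, where 0.427%, 0.466% and 17.4% of gene windows did. In the input 11 members (19.0%) passed, against 18.8% of all gene windows.

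Counts over the input were small and rest on few input reads. The input held 1 to 39.4 reads per member window with a median of 14.03. With a pseudocount of 0.5 in units of the autosomal mean, 4 members reached 2-fold over input with anti-FLAG in Cas9 (Pcdha2, Pcdhb22, Pcdhgb4 and Pcdhgc4), where 1.35% of all gene windows did, and 7 in RGM, where 3.58% did. Anti-GZF1 in wild type gave 5 members in Cas9 against 2.49% and 5 in RGM against 13.1%, for H3K27ac 5 against 2.39%, for the control 1 against 1.28% and for the knockout 6 against 1.3%. Pcdhb22 passed in all 7 ChIP libraries with an input of 1 read, Pcdhgc4 passed in 6, and Pcdhga8 and Pcdhga3 in 5, with 6 or 7 input reads each. Of the members called with anti-FLAG in Cas9, Pcdha2 was thus the one with an input near the family median.

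Over the 58 members the anti-FLAG and wild-type anti-GZF1 libraries were alike in order, and H3K27ac was most like those of Cas9. Spearman's rho across the members was 0.769 between anti-FLAG in Cas9 and RGM, 0.745 between wild-type anti-GZF1 in Cas9 and RGM, 0.797 between anti-FLAG and wild-type anti-GZF1 in Cas9, and 0.785 between anti-FLAG and H3K27ac in Cas9. H3K27ac had 0.745 with Cas9 wild type, 0.623 with RGM anti-FLAG and 0.664 with RGM wild type, against 0.675 with the control. Values were lower for the knockout, from 0.343 with RGM anti-FLAG to 0.477 with Cas9 anti-FLAG among the ChIP libraries, and 0.362 with the control. The control was low as well, at 0.422 with RGM anti-FLAG and 0.598 with Cas9 anti-FLAG. With the wild types it had 0.469 in Cas9 and 0.449 in RGM, where the knockout had 0.457 and 0.408. The input had 0.171 with Cas9 anti-FLAG and 0.276 with each wild type. Members are neighbours on 1 chromosome, and the input is the shallowest library, so these values describe the libraries and are not tested.

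Without Pcdha2, C-type genes had their highest mean anti-FLAG signal in the bin of the 5′ end in both lines, while other classes did so in part. C-type genes had a mean anti-FLAG density in Cas9 of 2.16 in the bin of the 5′ end, 1.29 in the bin before and 1.43 in the bin after. The input of these genes was 2.04, 2.01 and 1.07 in the same bins, so it was about as high at the 5′ end. Gamma A genes had 1.93 in the bin of the 5′ end and 1.75 in the bin after, with the input at 1.48 and 1.77. In the bin of the 5′ end, the bin before and the bin after, alpha genes had 1.57, 0.999 and 1.17, and beta genes 1.07, 0.888 and 0.996. Gamma B genes had 1.52 in the bin of the 5′ end, 1.61 in the bin after and 1.96 at 5 bins downstream. The next gamma A 5′ end lies 3.78 to 5.965 kb after each gamma B gene, so that last bin falls in the window of the next gene. In RGM anti-FLAG the alpha genes were higher 2 bins downstream (1.74) than at the 5′ end (1.49). In the control the bin of the 5′ end had 1.54 for C-type, 1.56 for gamma A, 1.43 for alpha and 1.14 for beta genes in the bin of the 5′ end. Beta genes were higher 2 bins downstream of the 5′ end than at it in 6 of the 8 libraries, the input among them. The values were 1.16 against 1.07 and 1.57 against 1.16 for anti-FLAG in Cas9 and RGM, 1.47 against 1.19 and 1.81 against 1.16 for the wild types, 1.40 against 0.992 for H3K27ac and 1.39 against 1.08 for the input. The exceptions were the control (1.09 against 1.14) and the knockout (1.57 against 1.61).

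Set against the control, anti-GZF1 in Cas9 wild type differed by class. The ratio was 1.19 for alpha, 1.09 for beta, 1.58 for gamma A, 1.31 for gamma B and 1.51 for C-type genes, with a median of 1.57 over all gene windows. Relative to the flanks, where wild type over control was 1.24, it was 0.960 (0.888 to 1.04) for alpha, 0.880 (0.827 to 0.936) for beta, 1.27 (1.19 to 1.36) for gamma A, 1.06 (0.963 to 1.16) for gamma B and 1.21 (1.09 to 1.35) for C-type genes. The direction thus turned for alpha and beta genes under this scaling, and all gene windows had a median of 1.31 against their own surroundings. It did not turn relative to chromosome 18, where wild type over control was 0.939. There alpha genes were at 1.27 (1.18 to 1.37) and beta genes at 1.16 (1.09 to 1.24).

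**Figure D3:**
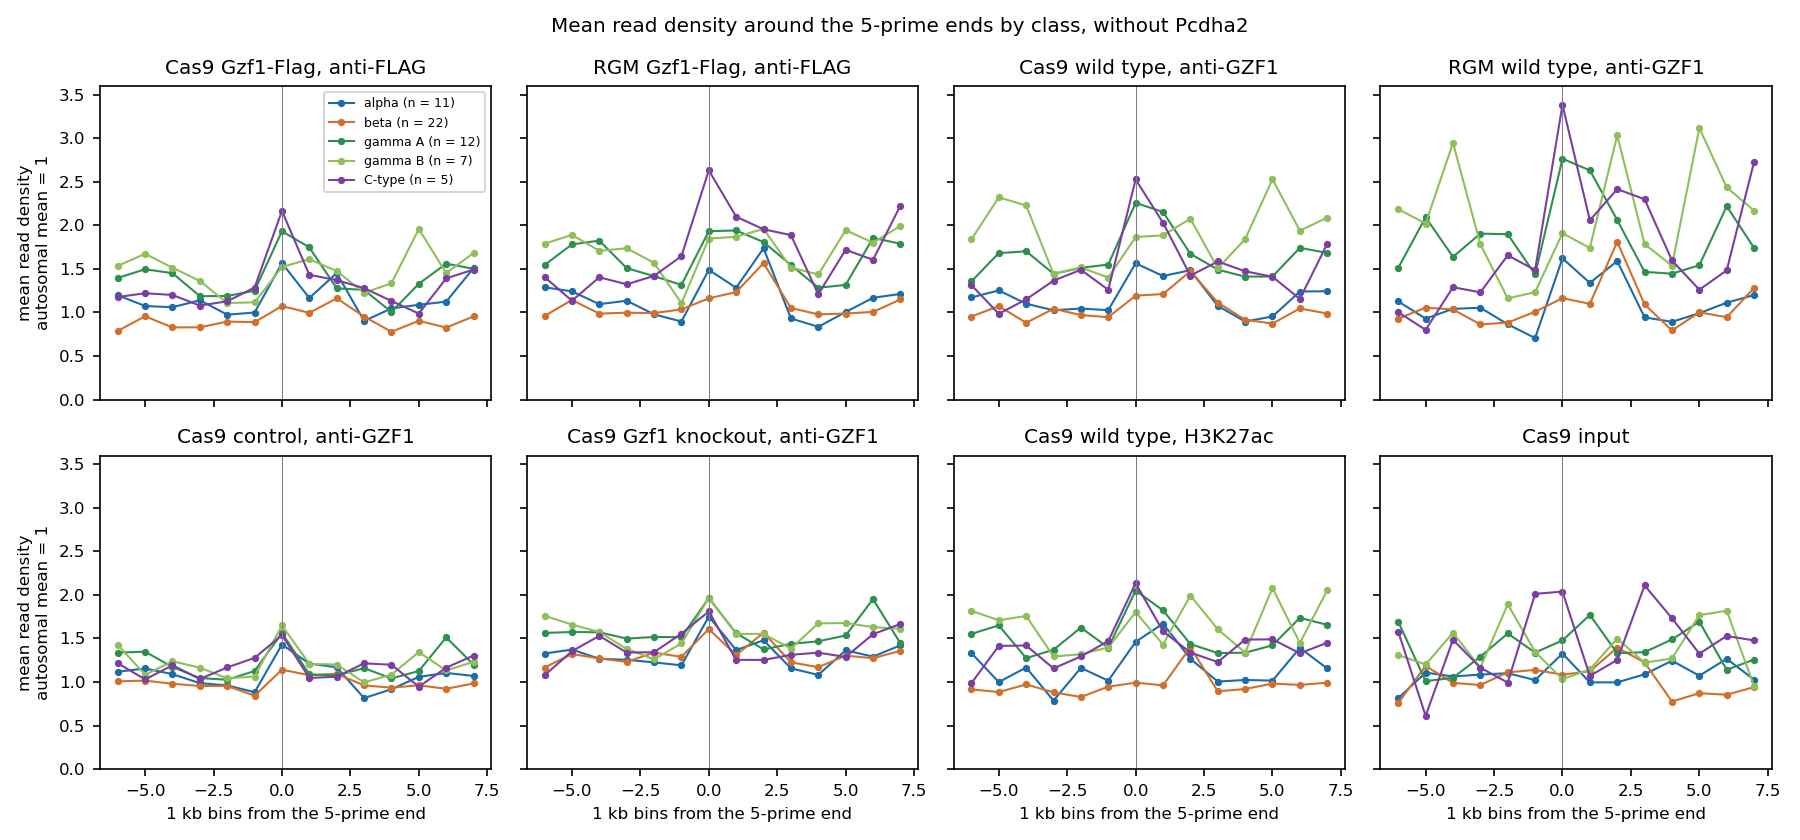
Mean read density (autosomal mean = 1) in 1 kb bins from 6 bins before to 7 bins after the 5′ end, for the alpha genes without Pcdha2 and the other classes, in each library. C-type and gamma A genes peak in the bin of the 5′ end in Cas9 anti-FLAG, at 2.16 and 1.93, and the control shows a smaller rise there. The input is at 2.04 and 1.48 in that bin. Bins further from the 5′ end can lie in windows of neighbouring members.

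In the knockout the family as a whole had more anti-GZF1 signal than in the control, by about as much as its surroundings. Over all 58 windows 8647 knockout and 7209 control reads gave a ratio of densities of 1.30 (1.26 to 1.34). The ratio was 1.28 in the flanks and 1.235 over chromosome 18, and relative to the flanks the family was at 1.02 (0.987 to 1.05). At 1.5-fold or more 12 members were higher in the knockout, against 2.56% of all gene windows, and 0 were lower, against 2.58%. Relative to the flanks 0 members were higher, against 0.816% of gene windows each scaled to its own surroundings, and 1 was lower (Pcdhb5), against 0.855%. The call of higher members thus ended once the level of the surroundings was taken out.

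Among single members, ratios ran from 0.815 (0.616 to 1.075) at Pcdhb5, 0.960 (0.739 to 1.26) at Pcdhac2 and 0.970 (0.748 to 1.255) at Pcdhga11 to 1.76 (1.38 to 2.24) at Pcdhb19, 1.77 (1.35 to 2.34) at Pcdhb4 and 1.82 (1.42 to 2.33) at Pcdhb22. Pcdhb5 held 93 knockout and 124 control reads, and Pcdhb22 179.3 and 107. Relative to the flanks 6 of 58 intervals lay wholly above 1 and 4 wholly below it, the latter at Pcdhac2, Pcdhb5, Pcdhgb4 and Pcdhga11. By class the ratio relative to the flanks was 0.961 (0.896 to 1.03) for alpha, 1.07 (1.02 to 1.13) for beta, 1.04 (0.977 to 1.12) for gamma A, 0.990 (0.908 to 1.08) for gamma B and 0.935 (0.843 to 1.04) for C-type genes.

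**Figure D4:**
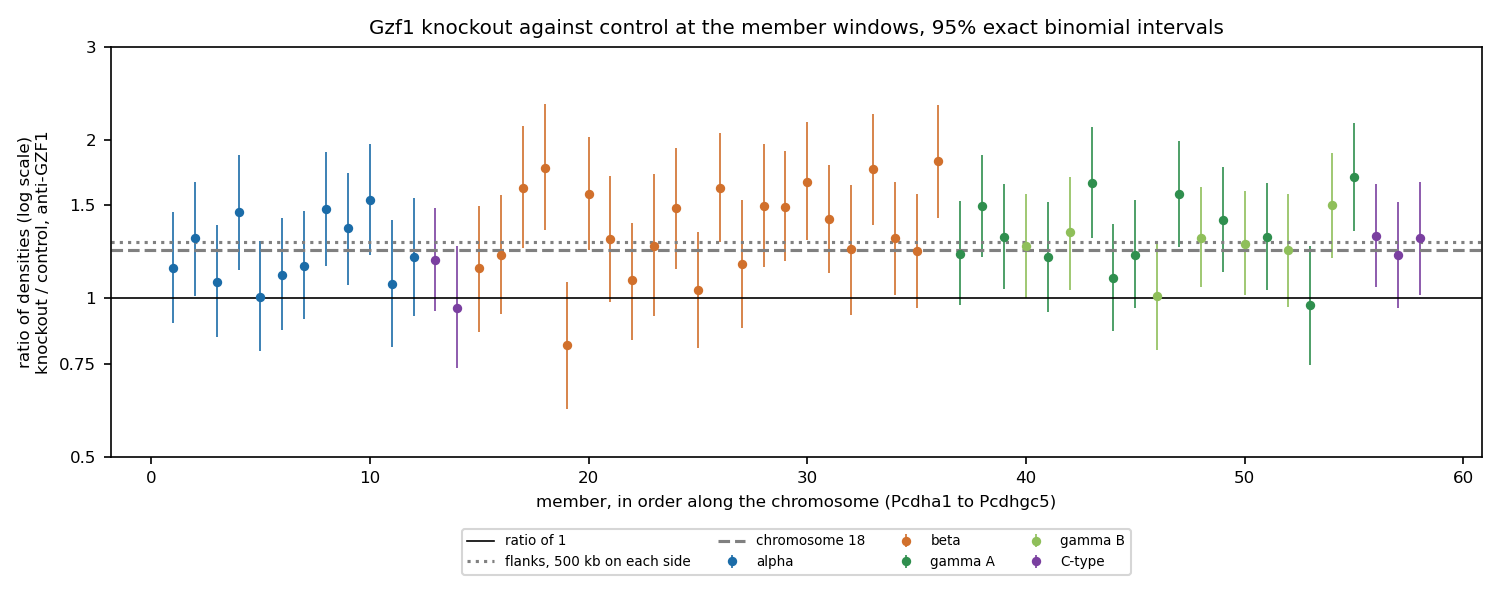
Ratio of anti-GZF1 density in the Gzf1 knockout to that in the control (log scale) for each member in chromosomal order, coloured by class, with 95% exact binomial intervals; lines mark a ratio of 1, the flanks (1.28) and chromosome 18 (1.235). Most members scatter around the lines of their surroundings, from 0.815 at Pcdhb5 to 1.82 at Pcdhb22.

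Between the lines, most members had similar densities in RGM and Cas9. For anti-FLAG 6898 RGM and 6570 Cas9 reads gave a family ratio of 1.08 (1.04 to 1.12), and 1.11 (1.07 to 1.15) without Pcdha2. The flanks were at 1.22, so relative to them the family was lower in RGM, at 0.887 (0.857 to 0.917). At 1.5-fold or more 6 members were higher in RGM, against 12.6% of gene windows, and 0 lower, against 4.15%. Relative to the flanks the counts were 0 higher, against 4.46%, and 4 lower (Pcdha2, Pcdha6, Pcdhb4 and Pcdhb8), against 2.57%. The highest ratios were 1.66 (1.27 to 2.18) at Pcdhb17, 1.64 (1.30 to 2.09) at Pcdhac2 and 1.60 at Pcdhb18. The lowest were 0.765 (0.675 to 0.865) at Pcdha2, 0.769 at Pcdhb8 and 0.777 at Pcdha6.

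For wild-type anti-GZF1 the family ratio of RGM to Cas9 was 1.04 (0.991 to 1.09), and 0.904 (0.861 to 0.948) relative to the flanks. At 1.5-fold or more 4 members were higher in RGM (Pcdha5, Pcdhb3, Pcdhga4 and Pcdhga6), against 21.4% of gene windows, and 7 lower, against 6.03%. Relative to the flanks 2 were higher, against 15.3%, and 10 lower, against 5.17%. The highest ratios were 1.78 (1.22 to 2.55) at Pcdhb3, 1.75 at Pcdhga6 and 1.62 (1.18 to 2.24) at Pcdha5. The lowest were 0.436 (0.166 to 0.975) at Pcdhb9, 0.510 at Pcdha9 and 0.531 at Pcdhb8. RGM wild type is the shallowest of the ChIP libraries, and Pcdhb9 had 7 reads in it. The RGM genome also carries CAST alleles, whose reads can differ from the mm10 reference, and its part in these ratios was not tested.

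**Figure D5:**
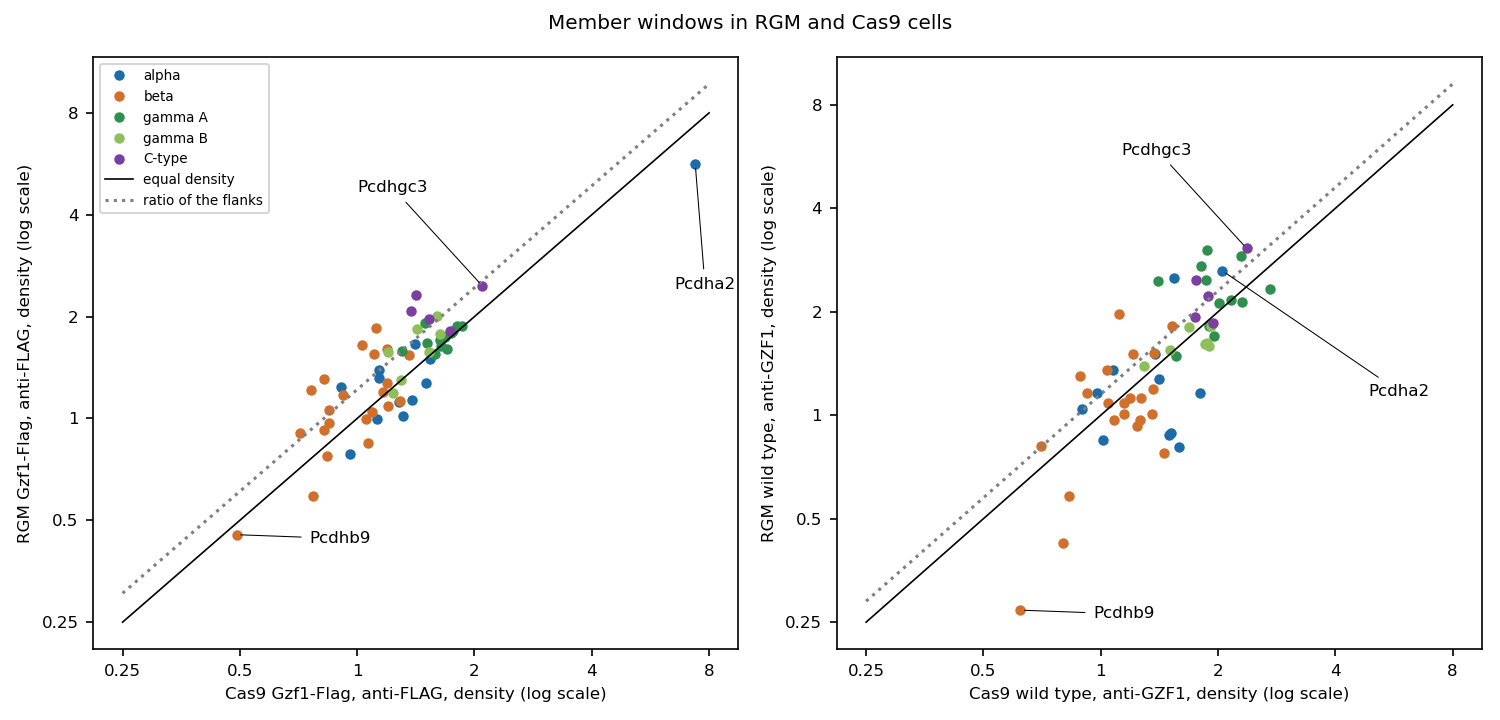
Density of each member window in RGM against Cas9 cells (log scales, coloured by class) for anti-FLAG on the left and wild-type anti-GZF1 on the right; the solid line is equal density and the dotted line the ratio of the flanks. Pcdha2 stands apart for anti-FLAG at 7.37 and 5.63, and Pcdhb9 is lowest in both panels.

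Other gene sets put these levels in context. The 22 genes listed from the flanks, such as Hdac3, a histone deacetylase gene, and Diaph1, had a median anti-FLAG density over both annotated gene ends of 1.57 in Cas9 and 1.84 in RGM. They ran up to 2.44 and 2.86 at Hdac3, so no flanking gene came near Pcdha2. Of 14 protocadherins and related cadherins outside the clusters 11 were measured, with a median of 1.57 in Cas9 and 1.56 in RGM, from 1.26 at Pcdh9 to 2.19 at Pcdh8 in Cas9. At 2 or more times local background with anti-FLAG were 0 of these 11 in Cas9 and 3 in RGM. Of 16 known regulators of the clustered promoters, among them CTCF, cohesin subunits and DNA methyltransferases, 10 were measured. Their anti-FLAG median was 2.26 in Cas9 and 2.61 in RGM, from Setdb1 (1.27 and 1.03) to Trim28 (3.30 and 4.25), and 1 in Cas9 and 5 in RGM passed the local rule. The median of all gene windows was 1.87 and 2.20, above the family's medians of 1.29 and 1.52. In the input all gene windows had a median of 1.78 and the family 1.19. The input median was 1.66 at the flanking genes, 1.44 at the protocadherins outside the clusters and 2.335 at the regulators. These differences in level were thus not particular to anti-FLAG.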

How the data were processed

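Reads were processed with cutadapt, Bowtie2 2.5.4, SAMtools and deepTools on mm10, per the submitters' processing notes, which give no order or settings. How duplicates or poorly mapped reads were treated is not given in the sources used here. The values the authors deposited are estimated counts (expected counts) of reads per 1 kb bin, not scaled to depth. This was checked on the values, of which 100% were multiples of 0.05 within 0.001. The rest was computed here with scipy 1.17.1 and numpy 2.4.6 under Python 3.11.15. Ratios and their intervals were run on simulated Poisson counts with known folds. Such counts follow the model that the intervals assume, so this checks the computation and not how well the intervals suit these data.

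Densities are counts over the column's mean in 2,462,755 autosomal bins. The gene table gives no strand on chromosome 18. The lower coordinate was taken as the 5′ end of the members, because alpha and gamma genes share their upper ends and all 3 arrays are transcribed in the same direction. Gene windows for comparison were those of protein-coding genes on 18 autosomes with a strand in the promoter table, which holds no chromosome 18. Of 16364, 684 were left out because a window or its local background was 0 in a library, leaving 15680. Over-input values are log2((ChIP + 0.5)/(input + 0.5)), with the Cas9 input also used for RGM. Ratios used counts rounded to whole reads. Sequenced reads are not independent molecules. Listed genes outside these windows were not measured, except flanking genes, for which both annotated ends were averaged.

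Named genes are, in each class, the highest and lowest member in Cas9 anti-FLAG and Cas9 wild-type anti-GZF1, the 5 highest by the lower line, the 3 highest and lowest of each ratio, the 3 highest for H3K27ac and every C-type gene. Other members named singly, among them Pcdha1, Pcdha3 and Pcdhb1, were added after their values were seen. The members and lists were chosen with earlier results of these data known. Alternatives were other pseudocounts, scalings, windows, folds, an input filter, local background and leaving out Pcdha2. The last was added after seeing the data.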

Additional observations from a re-analysis of the deposited data

How the results depend on the processing

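Counts of members at 2-fold over input moved with most settings. Each is given with the share of all gene windows that passed at the same setting. A pseudocount of 0.25 gave 8 for Cas9 wild type (4.99%), 4 for the control (2.72%) and 10 for the knockout (2.8%). A pseudocount of 1 gave 2 for anti-FLAG in Cas9 (0.357%) and 2 in RGM (0.957%), 1 for Cas9 wild type (0.695%), 0 for the control (0.159%), 1 for the knockout (0.217%) and 1 for H3K27ac (0.714%). Local background in place of input gave 1 (Cas9) and 3 (RGM) for anti-FLAG, 1 and 9 for the wild types, and 0 for the control, the knockout and H3K27ac, with the shares given above. Leaving out windows with extreme input gave 0 for the control (0.762%). A fold of 1.5 gave 9 (8.47%) and 12 (17.7%) for anti-FLAG, 17 (16%) and 16 (38.0%) for the wild types, 9 for the control (5.5%), 13 for the knockout (5.68%) and 12 for H3K27ac (14.7%). The 5′ bin alone gave 12 (9.18%) and 14 (14.5%) for anti-FLAG, 13 (14.1%) and 14 (30.1%) for the wild types, and 10 each for the control (7.21%), the knockout (7.37%) and H3K27ac (13.6%), and it raised the median density of the knockout to 1.81.

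The knockout to control ratio fell to 1.02 relative to the flanks and 1.05 relative to chromosome 18, with 0 members higher and 1 lower under each. With the 5′ bin alone 19 members were higher, against 7.62% of all gene windows, and with the lower fold threshold planned for this ratio 33, against 13.1%. For wild-type anti-GZF1 the RGM to Cas9 ratio was 0.904 relative to the flanks, 1.11 by the autosomal median and 1.11 in the 5′ bin, with 2, 7 and 9 members higher (all gene windows 15.3%, 29.3% and 34.6%), and 2 bins on each side left 2 lower (4.73%). For anti-FLAG the ratio reversed to 0.887 relative to the flanks, with 0 members higher and 4 lower, was 1.13 with 2 bins on each side, and the 5′ bin alone gave 1 lower (7.07%). The Pcdha2 density moved to 8.09 and 6.85 in the 5′ bin alone and to 5.71 and 4.15 with 2 bins on each side, in Cas9 and RGM. Of the alternatives, 89 values kept their direction and size, 55 moved and 1 reversed. Beyond the settings' own construction, the cause was not tested.

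No paired analysis was possible because each group has 1 library here, which also leaves no replicate to drop. The planned comparison with anti-FLAG controls was not run, since those libraries are not analysed here. Depth limits the input most, at a median of 14.03 reads per member window.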

Other observations

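Outside the member windows, 826 of the 1000 bins of the interval remained. In both RGM libraries the highest of them was 37,822,001 to 37,823,000 on chromosome 18, 3 bins downstream of the Pcdhgc5 5′ end. It had a density of 7.10 (5.43 to 9.12) with wild-type anti-GZF1 and 4.18 (3.44 to 5.04) with anti-FLAG in RGM. Among the 174 single bins inside member windows the highest were 5.92 (4.41 to 7.79) at the Pcdhgc3 5′ end for the former, whose interval overlaps that of this bin, and 7.91 upstream of Pcdha2 for the latter. The bin downstream of Pcdhgc5 had 3.23 with wild-type anti-GZF1 and 1.93 with anti-FLAG in Cas9, 1.94 in the control, 1.72 in the knockout, 2.20 for H3K27ac and 1.53 in the input from 6 reads.

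For H3K27ac and Cas9 wild-type anti-GZF1 the highest bin was 37,768,001 to 37,769,000, 3 bins downstream of the Pcdhga12 5′ end, at 4.22 (3.27 to 5.36) and 3.54 (2.82 to 4.39). The highest bins inside member windows were 3.40 (2.56 to 4.44) at Pcdhga10 and 3.47 (2.76 to 4.30) at Pcdhgc3, with overlapping intervals. In the bin downstream of Pcdhga12 anti-FLAG had 2.68 in Cas9 and 2.90 in RGM, and the input 2.17. Neither bin lies in a promoter window of a member. Both bins were picked for their values, so they are a description only.

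At the shared 3′ end of the alpha genes anti-FLAG was at 0.870 in Cas9 and 1.17 in RGM. At that of the gamma genes it was at 1.81 and 2.52, with the input at 2.55.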
